A study of Mus musculus with 16 samples.

Results

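Chromatin at 7 cytokine, chemokine and immune genes was examined in mesenchymal stromal cells of the endosteum, the inner bone surface facing the marrow. The genes were chosen by symbol and are the chemokine genes Cxcl1 and Ccl7, the interleukin genes Il15 and Il18, the tumour necrosis factor ligand gene Tnfsf11, the prostaglandin synthase gene Ptgs2 and the class I light chain gene B2m. They are 7 of the 3925 genes in the deposited table, and all 7 were found in it. They were named with earlier results of these data known, and all 7 carry the authors' mark DOWN, as do 2021 genes of the table. Which contrast that mark comes from is not stated by the labels, so the direction of a change at these genes is not independent of how the table was made.

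Stromal cells of bone marrow signal to blood and bone cells through secreted and surface proteins. CXCL1 draws neutrophils through CXCR2, and CCL7 draws monocytes through CCR2. IL-15 sustains natural killer cells and memory T cells and is presented on the cell surface by its receptor's alpha chain, while IL-18 is made as a precursor that inflammasome proteases cut. TNFSF11 is RANKL, the ligand that drives osteoclast formation and that osteoprotegerin, encoded by Tnfrsf11b, captures. PTGS2 is the inducible cyclooxygenase COX-2, which makes the prostaglandin precursor from arachidonic acid, and B2M is the light chain that class I antigen-presenting molecules need to reach the cell surface. The marks measured fall into 2 kinds. H2AK119ub1 and H3K27me3 are placed by Polycomb complexes 1 and 2 at repressed genes, and H3K4me3 and H3K27ac mark promoters in use, H3K27ac also enhancers. BAP1 is an enzyme that takes the ubiquitin off H2AK119.

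The mice were C57BL/6J, and both groups carried loxP-flanked Bap1 on both alleles. The control group (WT) was Bap1fl/fl without the recombinase, and the knockout group (cKO) was Prx1-cre;Bap1fl/fl, in which Prx1-cre, active in limb mesenchyme, deletes Bap1. Chromatin immunoprecipitation followed by sequencing (ChIP-seq) gave 2 libraries per genotype for each of the 4 marks, 16 in all. The labels give neither age nor sex. Bap1 itself was not analysed here, which leaves the genotype labels unchecked. Nothing in the labels says whether the pair of libraries in a group comes from different mice. The p-values therefore measure only library-to-library spread, which may be technical. For H3K4me3 and H3K27ac the titles and the antibody fields disagree: each title carries the antibody against the other mark. The titles are followed here, and if the antibody fields were right these 2 marks would trade names throughout. These are bulk cells, in which fewer cells carrying a mark and less of it per cell cannot be told apart.

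The table holds read counts in bins of 50 bp over 10 kb around each gene start, 1283020 to 10101047 counts per library. A read was counted in about 3 neighbouring bins, so the reads counted once number 429493 to 3371063. The 7 promoters, each the 4 kb around a gene start, held 30 to 360 counts per library in H3K27me3, 95 to 469 in H2AK119ub1, 131 to 1581 in H3K27ac and 155 to 2747 in H3K4me3, so the Polycomb marks are the least precise. Levels are given as CPM, deposited counts scaled by each library's autosomal window total and TMM factor, over a promoter of the same length for every gene. Changes are log2 of cKO over WT with their standard error (SE) from edgeR's quasi-likelihood test across all promoters, and a gene is called higher or lower at a Benjamini-Hochberg adjusted p at or under 0.05.

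The proximal promoter sequences of 3 of the genes are shown because these genes differ in their calls. Cxcl1 was called higher in both Polycomb marks and lower in both active marks. B2m was called higher in H3K27me3 and lower in both active marks, and Tnfsf11 lower in H2AK119ub1. Of these Polycomb calls, only that of H3K27me3 at Cxcl1 held with each library left out in turn. Each is the 250 bases before the gene start in RefSeq's GRCm38.p6, 5′ to 3′ on the gene's strand, at chr5:90890995-90891244 (plus strand), chr2:122147437-122147686 (plus) and chr14:78308044-78308293 (minus). Capitals mark matches, on either strand, to an NF-kB motif (GGG, any 2 bases, TTTCC), an interferon-response motif (GAAA, any 2 bases, GAAA) or a TATA motif (TATAAA).
Cxcl1: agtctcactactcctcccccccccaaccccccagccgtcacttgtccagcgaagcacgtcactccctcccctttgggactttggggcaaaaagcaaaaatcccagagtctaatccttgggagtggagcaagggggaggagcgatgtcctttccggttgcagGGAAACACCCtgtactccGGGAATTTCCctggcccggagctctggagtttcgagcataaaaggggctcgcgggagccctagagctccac
B2m: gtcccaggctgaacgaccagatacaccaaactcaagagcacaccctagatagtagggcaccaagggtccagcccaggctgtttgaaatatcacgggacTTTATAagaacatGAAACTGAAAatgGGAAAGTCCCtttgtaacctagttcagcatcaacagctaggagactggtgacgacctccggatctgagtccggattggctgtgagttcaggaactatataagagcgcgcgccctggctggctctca
Tnfsf11: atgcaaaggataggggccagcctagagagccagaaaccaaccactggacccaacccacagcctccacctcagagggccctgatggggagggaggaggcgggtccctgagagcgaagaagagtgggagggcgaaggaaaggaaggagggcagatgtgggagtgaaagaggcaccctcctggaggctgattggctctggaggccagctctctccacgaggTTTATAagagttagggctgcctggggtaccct

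The Cxcl1 sequence held the NF-kB motif at -89 to -80 on the minus strand and at -71 to -62 on the plus strand, counted in bases from the gene start. The B2m sequence held the TATA motif at -152 to -147 and the NF-kB motif at -126 to -117, both on the minus strand. Between them, without overlap, lay the interferon-response motif at -139 to -130 on the plus strand. The Tnfsf11 sequence held only the TATA motif, at -32 to -27, on the minus strand. Of the 32851 RefSeq promoters of this length, 1.41% hold this NF-kB motif, 2.98% the interferon-response motif and 12.37% the TATA motif. An AP-1 motif (TGANTCA, in 6.75% of promoters) and a cyclic-AMP response motif (TGACGTCA, in 1.55%) matched none of the 5 members with a sequence. The Il18 sequence held a TATA motif at -175 to -170 on the minus strand, and the Ptgs2 sequence held none of the 5 motifs. CpG dinucleotides numbered 13 at Ptgs2, 10 at Cxcl1, 8 at B2m, 4 at Tnfsf11 and 1 at Il18, against a median of 6 over all promoters. A match is a description of the letters. Ccl7 and Il15 are named only.

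In cKO cells 6 of the 7 genes lost both active marks, and 5 of those 6 gained at least 1 Polycomb mark. H3K4me3 and H3K27ac were lower at Cxcl1, Ccl7, Il15, Il18, Ptgs2 and B2m. H2AK119ub1 was higher at Cxcl1, Ccl7, Il18 and Ptgs2, and H3K27me3 at Cxcl1, Il18 and B2m. Of these gains, only those in H3K27me3 at Cxcl1 and Il18 held with each library left out in turn. Tnfsf11 stood apart, with lower H2AK119ub1 and no call in the other marks. Il15 had the smallest losses of the 6 and no Polycomb call.

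Losses of the active marks were also frequent among all promoters tested. H3K4me3 was lower at 31.8% of 3905 promoters and higher at 40.5%, against 6 and 0 of the 7 genes. H3K27ac was lower at 29.1% of 3892 and higher at 30.9%, again against 6 and 0. Among promoters marked DOWN, the closer comparison, 58.2% were lower in H3K4me3 and 53.1% in H3K27ac. H2AK119ub1 was higher at 16.7% and lower at 16.4% of 3889 promoters, against 4 and 1 of the 7 genes, and was higher at 9.59% of those marked DOWN. H3K27me3 was higher at 12.4% and lower at 15.6% of 3883 promoters, against 3 and 0, and was higher at 16.3% of those marked DOWN. The median log2 change of the 7 genes was 0.64 in H2AK119ub1, 0.75 in H3K27me3, -0.79 in H3K4me3 and -1.35 in H3K27ac. Over all promoters the medians were 0.02, 0.03 and 0.04 in the first 3 marks, and in H3K27ac the median was 0 to 2 decimals.

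**Figure D1:**
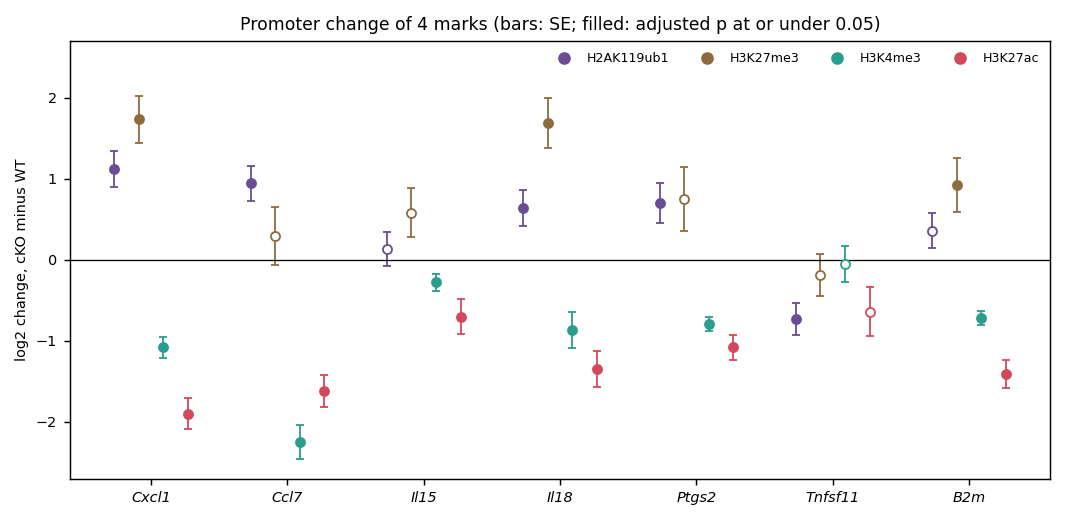
Log2 change of cKO over WT at the 4 kb promoter of each gene for the 4 marks; points are edgeR estimates from 2 libraries per genotype, bars are 1 SE, and filled points passed an adjusted p of 0.05. The active marks lie below 0 with filled points at every gene except Tnfsf11, whose only filled point is H2AK119ub1 at -0.73.

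Both active marks were lower at 22.5% of the 3875 promoters tested in all 4 marks. Promoters with both active marks lower and at least 1 Polycomb mark higher made up 5.55% of them, 215 promoters, and 5 of the 7 genes are among these. All 215 are marked DOWN, where they are 10.8% of the promoters tested. The full pattern, both Polycomb marks higher and both active marks lower, was met by 28 promoters (0.723%), including Cxcl1 and Il18, although the H2AK119ub1 calls of both depend on single libraries and that of Il18 also on the settings, as given with each gene. Ccl7 and Ptgs2 shared the pattern of 42 promoters (1.08%), with H2AK119ub1 as the Polycomb mark gained. B2m had that of 134 promoters (3.46%), with H3K27me3 gained. The Polycomb calls of Ccl7, Ptgs2 and B2m also depended on single libraries, and those of Ptgs2 and B2m on the settings too. Il15 had the plainer pattern of 507 promoters (13.1%), active marks lower only, and Tnfsf11 that of 82 promoters (2.12%), H2AK119ub1 lower only.

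In WT cells the 7 promoters lay between percentiles 26.1 and 82.6 of all promoters in H3K4me3 and between 26.5 and 95.0 in H3K27ac. B2m and Ptgs2 carried the most H3K4me3 (355 and 343 CPM), and their libraries overlapped, so these 2 do not differ beyond their spread. Il15 (242 CPM), Cxcl1 (195) and Ccl7 (102) followed without overlap between neighbours. Il18 (65.2 CPM) and Tnfsf11 (51.0) came last and overlapped. In H3K27ac the order was Ptgs2 (442 CPM), B2m (362), Cxcl1 (251), Ccl7 (214), Il18 (123), Il15 (114) and Tnfsf11 (55.3). Cxcl1 overlapped Ccl7, and Il18 overlapped Il15. Tnfsf11 came first in both Polycomb marks, with 193 CPM of H2AK119ub1 and 248 of H3K27me3, above 94.1% and 90.3% of all promoters. The RANKL gene was thus the one member with high Polycomb marks and low active marks in WT.

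**Figure D2:**
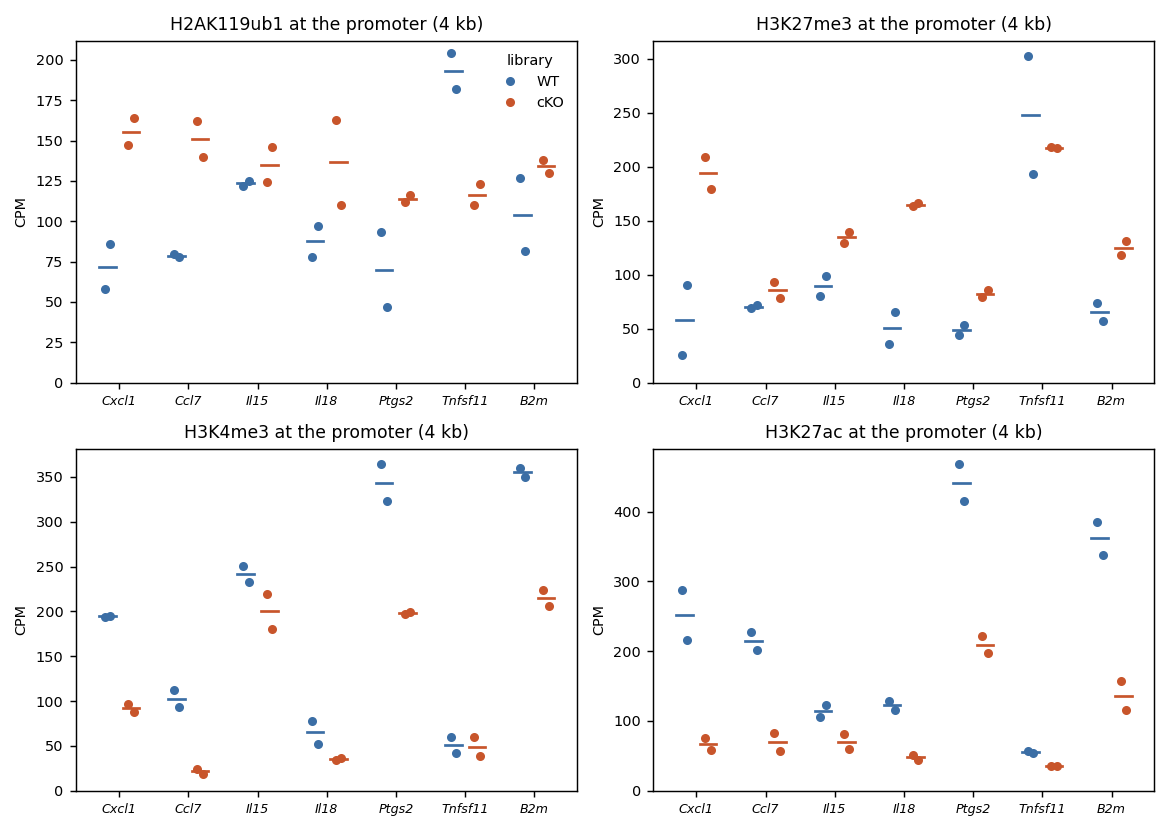
Promoter CPM of each gene in each mark; each point is 1 library (blue WT, orange cKO) and each short line the mean of 2. In H3K4me3 and H3K27ac the cKO libraries lie below the WT libraries at all genes except Tnfsf11 in H3K4me3, and in H2AK119ub1 Tnfsf11 alone falls, from 193 to 117 CPM.

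Cxcl1, the neutrophil-attracting chemokine gene (ENSMUSG00000029380, promoter at chromosome 5, 90889241 to 90893240), showed the largest H3K27ac loss of the 7 and an almost equal gain of H3K27me3. Its H3K27ac was 287 and 216 CPM in the WT libraries and 76.2 and 57.8 in the cKO libraries. Its H3K4me3 was 194 and 195 CPM in WT and 96.4 and 87.8 in cKO. Neither mark's groups overlapped, and WT H3K4me3 was nearly the same in both libraries. The log2 changes were -1.90 ± 0.19 (SE, adjusted p = 3.5e-10) in H3K27ac and -1.08 ± 0.13 (8.9e-16) in H3K4me3.

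The Polycomb marks at Cxcl1 moved the other way. H3K27me3 was 25.9 and 90.1 CPM in WT and 209 and 179 in cKO, and H2AK119ub1 was 57.7 and 85.7 CPM in WT and 147 and 164 in cKO. In each mark the cKO libraries lay above both WT libraries, although WT replicates 1 and 2 were far apart in H3K27me3. The log2 changes were 1.73 ± 0.29 (SE, adjusted p = 1.0e-07) in H3K27me3 and 1.12 ± 0.22 (2.1e-05) in H2AK119ub1. These moved Cxcl1 from percentile 24.2 to 89.2 of all promoters in H3K27me3 and from 19.6 to 90.2 in H2AK119ub1. Without cKO replicate 1 or without cKO replicate 2 the H2AK119ub1 gain remained in size (1.20 and 1.03) but did not pass the threshold (adjusted p = 0.0638 and 0.0645). With 1 library left in a group, its spread is assumed to be that of the other groups.

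Ccl7, the monocyte-attracting chemokine gene (ENSMUSG00000035373, chromosome 11, 82043712 to 82047711), had the largest H3K4me3 loss of the 7. H3K4me3 was 102 ± 13.2 CPM (SD, n = 2) in WT and 24.5 and 18.8 in the cKO libraries, and H3K27ac was 227 and 201 CPM in WT and 82.5 and 56.5 in cKO. Every WT library lay above every cKO library in both marks. The changes were -2.25 ± 0.21 (SE, adjusted p = 2.0e-26) in H3K4me3 and -1.62 ± 0.20 (1.6e-08) in H3K27ac. H2AK119ub1 rose from 79.4 and 77.8 CPM to 162 and 140, a change of 0.94 ± 0.22 (adjusted p = 3.6e-04). H3K27me3 was 69.0 and 71.5 CPM in WT and 92.8 and 78.6 in cKO, which did not pass the test (0.29 ± 0.36, adjusted p = 0.602). Ccl7 therefore gained the ubiquitin mark without a call in the methyl mark. Its H2AK119ub1 call was lost without cKO replicate 1 (0.83, adjusted p = 0.0893). Over 10 kb windows, the median H3K27ac change of the 20 nearest measured genes was -0.44 around Ccl7, against -0.10 around Cxcl1. In their own windows Ccl7 changed by -1.5 and Cxcl1 by -1.51.

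Il18, encoding the inflammasome-processed interleukin-18 (ENSMUSG00000039217, chromosome 9, 50552827 to 50556826), moved as Cxcl1 did, from lower active levels. H3K27ac was 129 and 116 CPM in WT and 51.8 and 44.3 in cKO, and H3K4me3 was 78.0 and 52.4 CPM in WT and 34.2 and 36.7 in cKO. The changes were -1.35 ± 0.22 (SE, adjusted p = 2.8e-06) and -0.87 ± 0.22 (1.1e-04). Both marks fell while the 20 nearest measured genes had median changes over 10 kb windows of 0.54 in H3K27ac and 0.37 in H3K4me3. In its own window Il18 changed by -0.92 and -0.57. H3K27me3 was 36.2 and 65.3 CPM in WT and 164 and 166 in cKO, a change of 1.69 ± 0.31 (adjusted p = 1.3e-06), from percentile 17.4 to 85.0. H2AK119ub1 was 77.9 and 97.0 CPM in WT and 163 and 110 in cKO (0.64 ± 0.22, adjusted p = 0.0163). The H3K27me3 gain held with each library left out in turn. The H2AK119ub1 call did not: it was lost without WT replicate 1 (0.49, adjusted p = 0.136), without cKO replicate 1 (0.33, 0.455) and without cKO replicate 2 (0.90, 0.0626). It was also lost within 1 kb of the start (0.65, adjusted p = 0.221), with all 16 libraries in 1 fit (0.60, 0.085) and with a regional offset (0.55, 0.0829), which sets each change against the median of the 20 nearest measured genes in another mark.

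Il15, encoding the natural killer cell growth factor (ENSMUSG00000031712, chromosome 8, 82401223 to 82405222), changed least among the 6. H3K4me3 was 251 and 233 CPM in WT and 220 and 180 in cKO, and H3K27ac was 105 and 123 CPM in WT and 80.9 and 59.4 in cKO. The groups did not overlap but lay close. The changes were -0.28 ± 0.10 (SE, adjusted p = 0.00968) in H3K4me3 and -0.70 ± 0.22 (0.00562) in H3K27ac. The H3K4me3 call was lost without WT replicate 1 (-0.23, adjusted p = 0.0641) and without cKO replicate 2 (-0.14, 0.359), and within 1 kb of the start the change was 0.03. It was also lost with the regional offset (-0.03, adjusted p = 0.849), with library sizes from the outer 1 kb (-0.12, 0.325) and in the fit of all 16 libraries (-0.30, 0.186). The H3K27ac call was lost without WT replicate 2 (-0.54, adjusted p = 0.133), without cKO replicate 2 (-0.46, 0.111) and with the regional offset (-0.44, 0.0849). The regional offset takes the neighbours' change from another mark. In the same marks, the nearest measured genes around Il15 had median changes over whole windows of 0.09 in H3K4me3 and -0.02 in H3K27ac. In its own window Il15 changed by -0.35 and -0.45. H2AK119ub1 was 122 and 125 CPM in WT and 124 and 146 in cKO, with overlap (0.13 ± 0.21, adjusted p = 0.669). H3K27me3 was 80.2 and 98.7 CPM in WT and 129 and 140 in cKO, without overlap but not past the threshold (0.58 ± 0.30, adjusted p = 0.133), although it passed with the regional offset (0.84, 0.027).

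Ptgs2, the COX-2 gene (ENSMUSG00000032487, chromosome 1, 150098031 to 150102030), was the most acetylated of the 7 in WT and remained above the median promoter in cKO. H3K27ac was 468 and 415 CPM in WT and 222 and 197 in cKO, a fall from percentile 95.0 to 71.0. H3K4me3 was 364 and 323 CPM in WT and 197 and 199 in cKO. The changes were -1.08 ± 0.15 (SE, adjusted p = 2.0e-07) and -0.79 ± 0.09 (2.7e-16), each larger than the spread between libraries. H2AK119ub1 was 93.3 and 46.8 CPM in WT and 112 and 116 in cKO (0.70 ± 0.25, adjusted p = 0.0226). Without WT replicate 2, the lower WT library, the change was 0.28 (adjusted p = 0.434), and without cKO replicate 1 or 2 it was 0.72 and 0.67, not past the threshold (0.263 and 0.276). The call was also lost with the regional offset (0.41, adjusted p = 0.292) and within 1 kb of the start (0.89, 0.0928). H3K27me3 was 44.0 and 53.6 CPM in WT and 78.9 and 85.4 in cKO, without overlap and not past the threshold (0.75 ± 0.39, adjusted p = 0.144).

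B2m, the class I light chain gene (ENSMUSG00000060802, chromosome 2, 122145686 to 122149685), lost active marks from a high level. H3K27ac was 385 and 338 CPM in WT and 157 and 115 in cKO, and H3K4me3 was 360 and 350 CPM in WT and 224 and 206 in cKO. The changes were -1.41 ± 0.17 (SE, adjusted p = 1.2e-08) and -0.72 ± 0.09 (4.3e-14). The 20 nearest measured genes had median changes over 10 kb windows of -0.53 and -0.55 in these marks. In its own window B2m changed by -1.24 and -0.74. H3K27me3 rose from 74.1 and 57.5 CPM to 118 and 131 (0.92 ± 0.33, adjusted p = 0.0218). This call was lost without WT replicate 2 (0.74, adjusted p = 0.114), without cKO replicate 1 (1.02, 0.0839) and without cKO replicate 2 (0.86, 0.151). H2AK119ub1 was 127 and 81.3 CPM in WT and 138 and 130 in cKO, and did not pass (0.36 ± 0.22, adjusted p = 0.198). Without WT replicate 1 it did (0.72, adjusted p = 0.025).

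Tnfsf11, the RANKL gene (ENSMUSG00000022015, chromosome 14, 78306044 to 78310043), changed in the opposite Polycomb direction. H2AK119ub1 was 204 and 182 CPM in WT and 110 and 123 in cKO, a change of -0.73 ± 0.20 (SE, adjusted p = 0.00266), from percentile 94.1 to 54.5. The groups did not overlap, but the call was lost without cKO replicate 1 (-0.65, adjusted p = 0.137) and without cKO replicate 2 (-0.81, 0.0718). H3K27me3 stayed high, with 303 and 193 CPM in WT and 218 and 217 in cKO (-0.19 ± 0.26, adjusted p = 0.651). H3K4me3 was low, at 60.1 and 42.0 CPM in WT and 59.5 and 39.1 in cKO (-0.05 ± 0.22, adjusted p = 0.828). In both of these marks the groups overlapped. H3K27ac was 56.4 and 54.1 CPM in WT and 35.5 and 35.4 in cKO (-0.64 ± 0.30, adjusted p = 0.065), without overlap, and passed with all 16 libraries in 1 fit (-0.62, 0.0386). Over the whole 10 kb window the H3K27ac change at Tnfsf11 did pass (-0.72 ± 0.21, adjusted p = 0.00588).

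Under the scaling used, the H3K4me3 loss lay more beside the gene start than at it for several of the genes. Each promoter was divided into a core within 400 bp of the start and shoulders from 0.4 to 2 kb on each side. In the downstream shoulder H3K4me3 was lower at all 7 genes, against 35.6% of promoters tested. In the upstream shoulder it was lower at Ptgs2 and B2m, against 16.5%, and in the downstream flank, 2 to 5 kb from the start, at Ccl7, Il15, Ptgs2 and B2m, against 28.2%. In the core it was lower only at Ccl7 (-2.04 ± 0.33) and Il18 (-0.80 ± 0.25), against 14.3%. Over all promoters the median H3K4me3 change was 0.26 in the core and -0.49 in the downstream flank. In the upstream and downstream shoulders it was -0.13 and -0.15. The core changes of Cxcl1 (-0.34), Il15 (0.09), B2m (0.09) and Ptgs2 (0.22) lay below the core median, and that of Tnfsf11 (0.75) above it. The Il18 core call was lost without WT replicate 1 (-0.63, adjusted p = 0.0941) and without cKO replicate 1 (-0.72, 0.0684). All 4 flank calls were lost with DESeq2, at changes of -0.41 to -0.96. For the core, shoulders, flanks and 10 kb windows, shares are given over all genes only. Shares among genes marked DOWN, the closer comparison for these 7 genes, were not taken there.

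Cxcl1 shows the contrast most plainly. Its downstream shoulder held 94.7 and 90.5 CPM of H3K4me3 in WT and 8.23 and 12.7 in cKO, while its core held 79.4 and 89.1 CPM in WT and 70.3 and 63.4 in cKO. The shoulder change was -3.11 ± 0.23 (SE, adjusted p = 2.3e-12) and the core change -0.34 ± 0.15 (0.0646). The core change passed with DESeq2 (-0.63) and without WT replicate 1 (-0.43). The 500 bp of highest H3K4me3 at Cxcl1 lay just downstream of the start in WT and just upstream in cKO. At Ptgs2, where WT H3K4me3 reached to both sides, the shoulders fell by 1.58 upstream and by 1.77 downstream on the log2 scale. Its core held 106 ± 3.17 CPM (SD, n = 2) in WT and 120 and 128 in cKO (0.22 ± 0.11, adjusted p = 0.104). At B2m the shoulder changes were -1.23 ± 0.32 and -1.38 ± 0.13, and the core held 115 CPM in both WT libraries and 130 and 116 in cKO (0.09 ± 0.11, adjusted p = 0.527). The stretch at or above 50% of the highest 500 bp went from 1.5 to 1.0 kb at Cxcl1, from 2.5 to 1.0 kb at Ptgs2 and from 1.5 to 0.5 kb at B2m.

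The other genes did not follow one course. At Ccl7 the core and the downstream shoulder fell together, the shoulder from 76.4 and 59.0 CPM to 12.3 and 7.40 (-2.80 ± 0.26). At Il18 the shoulder change was -1.17 ± 0.34, and that call was lost without WT replicate 1 (-0.70, adjusted p = 0.139). At Il15 the shoulder held 177 and 146 CPM in WT and 136 and 105 in cKO (-0.43 ± 0.14, adjusted p = 0.00929), and the call was lost with DESeq2 (-0.31) and without WT replicate 1 (-0.29) or cKO replicate 2 (-0.25). At Tnfsf11 the downstream shoulder held 36.4 and 23.4 CPM in WT and 23.7 and 9.97 in cKO, which overlap. Its change there was -0.85 ± 0.35 (adjusted p = 0.0398), lost with DESeq2 (-0.72) and without WT replicate 1, WT replicate 2 or cKO replicate 2 (-0.51, -1.16 and -0.33). The Tnfsf11 core held 18.7 and 15.0 CPM in WT and 31.3 and 25.5 in cKO, a rise of 0.75 ± 0.27 (adjusted p = 0.0287). Core rises were met at 42.9% of promoters, and the one at Tnfsf11 was lost with DESeq2 (0.45), without TMM factors (0.65), without WT replicate 2 (0.58) and without cKO replicate 1 (0.60).

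**Figure D3:**
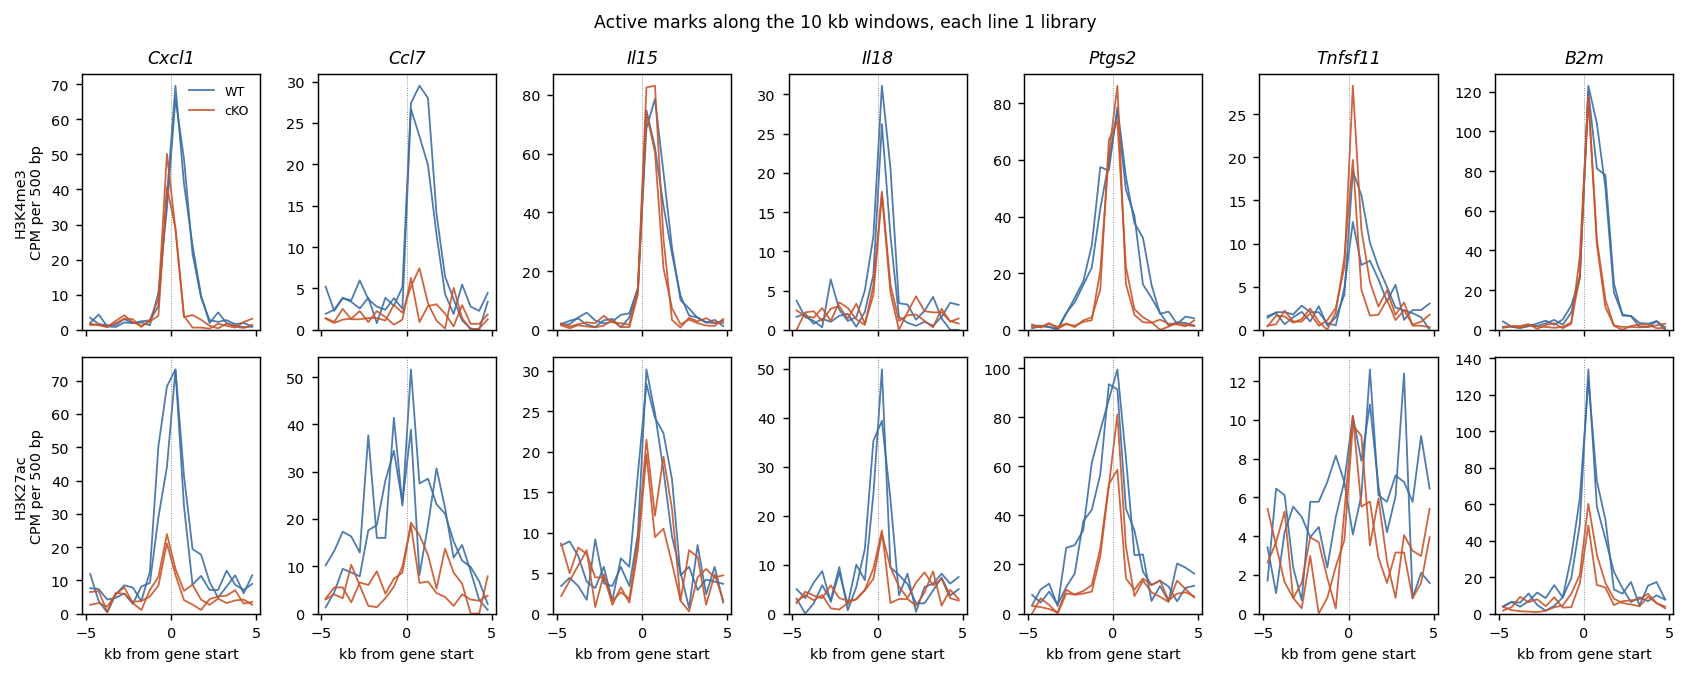
H3K4me3 (top) and H3K27ac (bottom) along the 10 kb window of each gene, in CPM per 500 bp against distance from the gene start in kb, downstream to the right; each line is 1 library, blue WT and orange cKO. H3K4me3 peaks at Ptgs2 and B2m reach similar heights in both genotypes with less on the sides in cKO, whereas the Ccl7 peak is lower over its whole width.

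The share of a window's H3K4me3 counts that fell in the core describes this narrowing per library, with no test. It was 24.6% and 29.6% in WT and 55.9% and 57.6% in cKO at Ptgs2. At B2m it was 29.3% and 29.4% against 53.2% and 50.9%, and at Cxcl1 36.4% and 40.6% against 59.8% and 59.6%. At Tnfsf11 the shares were 22.8% and 21.0% against 40.5% and 44.4%, and at Il15 21.9% and 25.3% against 30.2% and 34.3%. These 5 genes had both cKO libraries above both WT libraries, as did 65.7% of the 3791 genes with at least 100 counts in every library. Ccl7 overlapped (18.8% and 17.6% against 13.7% and 19.2%). Il18 had less in its core in cKO, 36.2% and 41.5% against 30.8% and 34.9%. Over all genes the median share was 28.7% and 29.7% in WT and 38.1% and 37.9% in cKO. A higher core share in cKO was thus common to the table. The cKO shares of Ptgs2, B2m, Cxcl1 and Tnfsf11 lay above the cKO medians, and Cxcl1 and Il18 lay above the WT medians in WT.

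**Figure D4:**
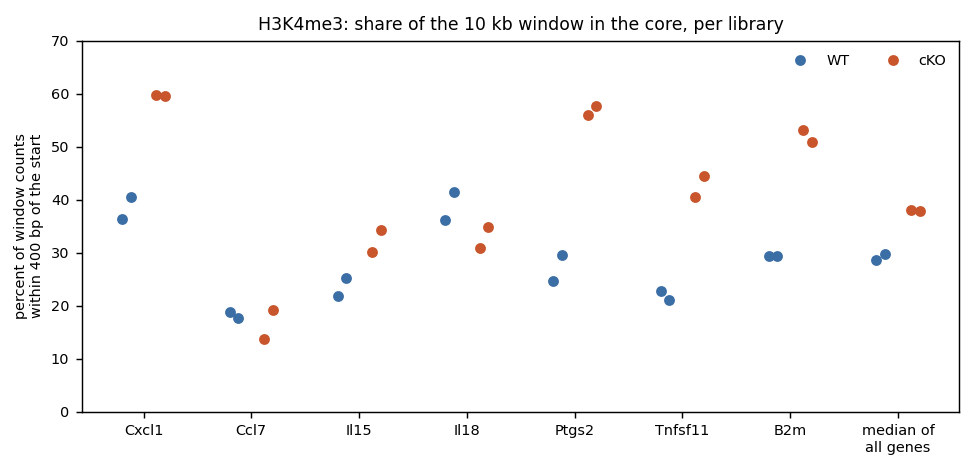
Percent of the H3K4me3 counts of each 10 kb window that lay within 400 bp of the gene start; each point is 1 library, blue WT and orange cKO, and the last pair of columns is the median over all genes. Cxcl1, Ptgs2 and B2m rise from 24.6 to 40.6% in WT to 50.9 to 59.8% in cKO, while Il18 falls.

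H3K27ac was lost at the start as well as beside it. In the core it was lower at Cxcl1, Ccl7, Il18, Ptgs2 and B2m, against 16% of promoters tested. In the upstream shoulder it was lower at Cxcl1, Ccl7, Ptgs2, Tnfsf11 and B2m, against 17.1%, and in the downstream shoulder at Cxcl1, Ccl7, Il18, Ptgs2 and B2m, against 25.1%. The Il18 shoulder call was lost without WT replicate 1 (-0.90) or cKO replicate 2 (-0.86). At B2m the core fell from 147 and 149 CPM to 66.5 and 54.6 (-1.29 ± 0.22, adjusted p = 3.9e-07), where H3K4me3 in the same bins did not pass the test. At Cxcl1 the H3K27ac core fell from 103 ± 6.89 CPM to 29.8 ± 3.94 (SD, n = 2) (-1.79 ± 0.27, adjusted p = 1.0e-08). At Ptgs2 the core change was smaller (-0.53 ± 0.20, adjusted p = 0.0248) than in the upstream shoulder, which fell from 191 and 158 CPM to 49.9 and 55.9 (-1.72 ± 0.22, adjusted p = 7.3e-13). The Ptgs2 core call was lost without either WT library (-0.49 and -0.50) and without cKO replicate 2 (-0.36). At Ccl7 the upstream shoulder fell from 81.9 and 88.6 CPM to 22.9 and 12.2 (-2.28 ± 0.31). At Tnfsf11 the upstream shoulder held 20.7 and 13.1 CPM in WT and 6.83 and 3.24 in cKO (-1.73 ± 0.59, adjusted p = 0.0143), a call lost without WT replicate 1 (-1.34) or cKO replicate 2 (-1.26).

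Few of the Polycomb gains passed within the core alone. There H2AK119ub1 was higher only at Ccl7 (from 9.62 and 8.37 CPM to 35.8 and 27.7, 1.81 ± 0.51, adjusted p = 0.0437), against 0.738% of promoters, and lower only at Tnfsf11, against 2.45%. The Ccl7 core call was lost without WT replicate 2 (1.71) and without either cKO library (1.61 and 1.99). Tnfsf11 had an H2AK119ub1 peak at its start in WT, with 63.5 and 53.2 CPM in the core, above 99.4% of promoters. In cKO the core held 21.8 and 15.8 CPM (-1.64 ± 0.37, adjusted p = 0.0203), and the core's share of the window went from 17.6% and 16% to 9.0% and 7.0%. This core call was lost without cKO replicate 2 (-1.42, adjusted p = 0.138). H3K27me3 also peaked at the Tnfsf11 start, with 100 and 70.7 CPM in the core in WT and 56.4 and 59.0 in cKO, which did not overlap but did not pass (-0.56 ± 0.36, adjusted p = 0.452). The core's share of the H3K27me3 window was 20.0% and 19.3% in WT and 14.8% and 15.9% in cKO, also without overlap.

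H3K27me3 gains passed in the upstream shoulder at Cxcl1 (1.72 ± 0.42), Il18 (1.54 ± 0.48) and B2m (1.63 ± 0.45), against 6.39% of promoters tested. At Cxcl1 this shoulder held 15.5 and 39.6 CPM in WT and 118 and 65.1 in cKO, with the call lost without cKO replicate 1 (1.25). At B2m it held 21.5 and 26.4 CPM in WT and 54.0 and 94.9 in cKO, with the call lost without cKO replicate 2 (1.18). At Il18 it held 19.8 and 24.9 CPM in WT and 62.5 and 67.8 in cKO, with the call lost without WT replicate 1 (1.39) and without either cKO library (1.62 and 1.49). Il18 also gained H3K27me3 in the downstream shoulder, from 14.7 and 28.0 CPM to 74.6 and 65.8 (1.71 ± 0.46, adjusted p = 0.00239), a call lost without WT replicate 1 (1.33) or cKO replicate 1 (1.64). In the downstream flank Il18 rose from 54.3 and 54.4 CPM in the WT libraries to 203 ± 31.3 (SD, n = 2) in cKO (1.90 ± 0.30, adjusted p = 3.0e-04), and in the upstream flank its libraries overlapped (0.14 ± 0.31, adjusted p = 0.83). Its highest 500 bp in cKO lay at the downstream edge of the window.

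**Figure D5:**
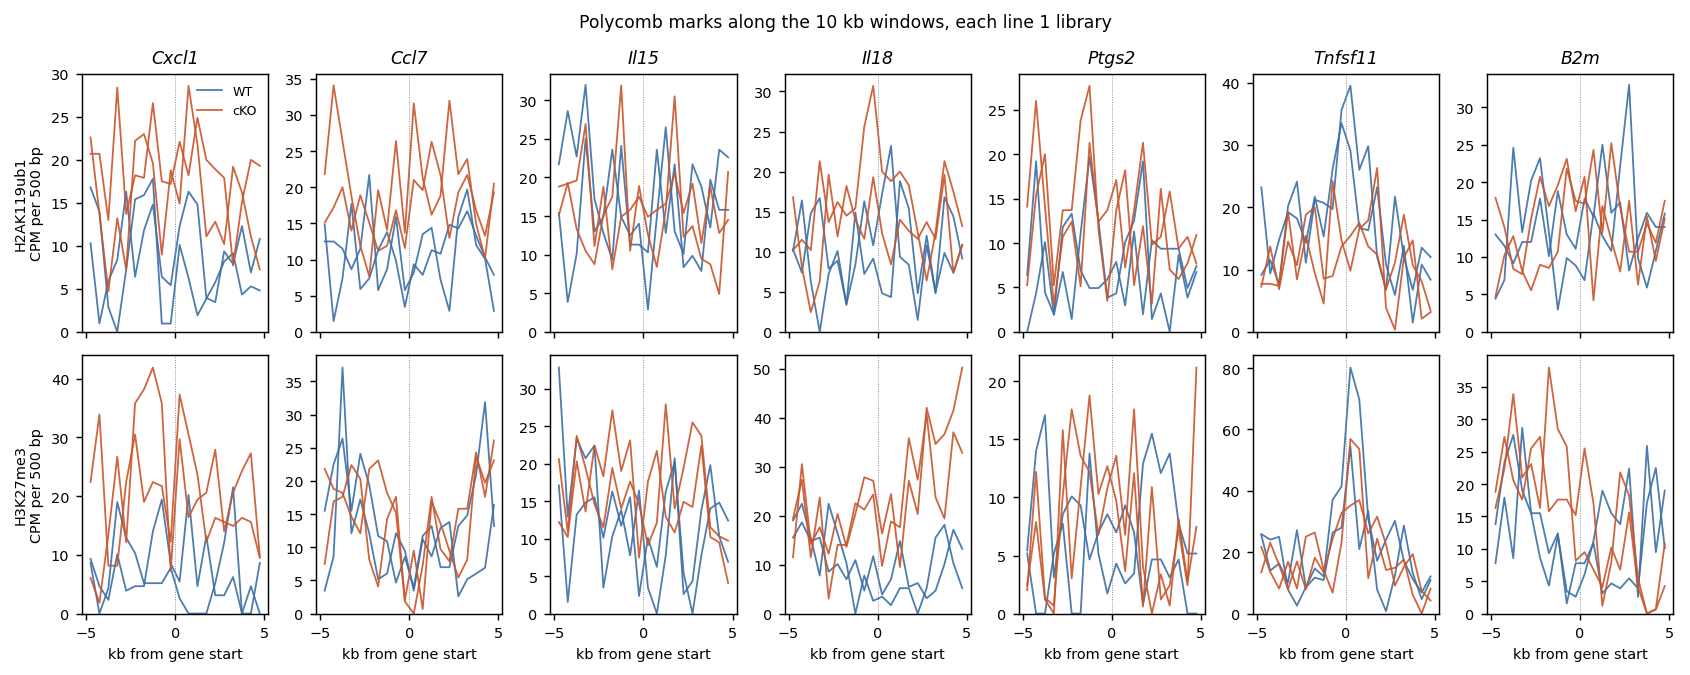
H2AK119ub1 (top) and H3K27me3 (bottom) along the 10 kb window of each gene, in CPM per 500 bp against distance from the gene start in kb, downstream to the right; each line is 1 library, blue WT and orange cKO. Tnfsf11 has a WT H2AK119ub1 peak at the start that is lower in cKO, and the H3K27me3 gain lies on both sides of the start at Cxcl1 and mostly downstream at Il18.

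Over whole 10 kb windows the calls were close to those of the promoters. H2AK119ub1 was higher at Cxcl1 (1.03 ± 0.16), Ccl7 (0.80 ± 0.14), Il18 (0.54 ± 0.16) and Ptgs2 (0.74 ± 0.17), against 22.1% of windows, and lower at Tnfsf11 (-0.57 ± 0.13), against 25.2%. H3K27me3 was higher at Cxcl1 (1.60 ± 0.20) and Il18 (1.25 ± 0.19), against 17.7%. B2m no longer passed (0.31 ± 0.19, adjusted p = 0.2). H3K4me3 was lower at the same 6 genes as in the promoter, against 37.3% of windows. H3K27ac was lower at all 7, against 33.6%.

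The 6 genes that lost active marks varied together over the libraries, and Tnfsf11 did not. With each mark centred on its 4 libraries, the log2 CPM of pairs among the 6 correlated at Pearson r 0.68 to 0.95 over 16 libraries, and those of Tnfsf11 with the others at -0.09 to 0.30. The points share genotype and depth, and the 6 were grouped by changes in these same values, so these are descriptions and no support for the grouping. Among 2767 named genes tested in all 4 marks, the 2 most like Cxcl1 were Stom (r = 0.956) and Il18 itself (0.947). Stom had the same signs, with H3K27me3 higher (1.09 ± 0.34) and both active marks lower. Those most like Ccl7 were Emilin1 (0.960), an extracellular matrix glycoprotein gene, and Vcam1 (0.953), the stromal adhesion molecule. Those most like Il18 were Krt13 (0.964) and Plcd3 (0.953), and those most like Ptgs2 were Ccn2 (0.955), the connective tissue growth factor gene, and Gng8 (0.938). Maml3 (0.954) and Stard9 (0.950) were most like B2m, and Zfhx4 (0.910) and Dennd2c (0.901) most like Il15. Tnfsf11 had less close matches, Etl4 (0.848) and Prickle2 (0.831). Both of these also lost H2AK119ub1 (-0.78 ± 0.24 and -0.80 ± 0.22). Genes most like a member were chosen on these same values, so shared changes follow in part from the choice.

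Genes of the same pathways were counted from lists written from textbook roles, which include the members themselves. Few of each list are in the table, which holds genes the authors selected and marked, so a list's direction is not independent evidence. For comparison, 31.8% of all promoters were lower and 40.5% higher in H3K4me3, and 29.1% and 30.9% in H3K27ac. In H2AK119ub1 16.4% were lower and 16.7% higher, and in H3K27me3 15.6% and 12.4%. Among promoters marked DOWN, 58.2% were lower in H3K4me3 and 53.1% in H3K27ac. The table holds 7 of 34 chemokine ligand genes, 5 with the mark DOWN and 2 of them the members Cxcl1 and Ccl7. In H3K4me3 5 fell and 2 rose, H3K27ac lower at 4 and higher at 1, H2AK119ub1 higher at 3 and lower at 1, and H3K27me3 higher at 1. The list medians were -0.75 in H3K4me3 and -1.01 in H3K27ac. Ccl9, a monocyte-attracting chemokine gene that shares its central 4 kb with another measured gene, had the same calls as Ccl7. Its H3K27ac fell from 451 and 397 CPM to 145 and 111 (-1.73 ± 0.17), and its H2AK119ub1 rose (1.10 ± 0.25). Cxcl12, which holds blood-forming stem cells in the marrow, lost H3K4me3 (-0.75 ± 0.08) and H3K27ac (-1.01 ± 0.19). Cx3cl1, coding for fractalkine, lost H3K4me3 (-0.58 ± 0.14), and Cxcl16, a membrane-bound chemokine gene, gained it (0.65 ± 0.16) together with H3K27ac (0.68 ± 0.27).

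Of 44 interleukin and colony-stimulating factor genes 6 were measured, 5 marked DOWN and 2 of them the members Il15 and Il18. In H3K4me3 3 fell and 1 rose, and in H3K27ac 4 fell and 1 rose, with medians of -0.33 and -0.64. H2AK119ub1 was higher at 1 and lower at 1, and H3K27me3 higher at 2 and lower at 1. Csf1, coding for the macrophage growth factor that acts with RANKL on osteoclast precursors, lost H3K27ac (355 and 293 CPM to 182 and 155, -0.94 ± 0.16) while its H3K4me3 did not pass (-0.15 ± 0.08). Kitl, the stem cell factor gene, gained H3K27me3 (1.46 ± 0.28) and lost both active marks (-0.37 ± 0.08 and -0.56 ± 0.18). Thpo, coding for thrombopoietin, went the other way. Its H3K27me3 fell from 660 and 507 CPM to 98.3 and 87.5 (-2.65 ± 0.27) and its H3K4me3 rose (1.60 ± 0.12), though its central 4 kb is shared with another measured gene. Il1rn, coding for the interleukin-1 receptor antagonist, passed in no mark, with changes of -0.58 in H3K27ac and -0.52 in H3K4me3.

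Of 80 receptor and decoy genes 20 were measured, 13 marked DOWN. H3K4me3 was lower at 10 and higher at 7, H3K27ac lower at 12 and higher at 3, with medians of -0.26 and -0.71. H2AK119ub1 was higher at 1 and lower at 5, and H3K27me3 higher at 1 and lower at 4. Receptor genes of the members' own ligands differed among themselves. Il18rap, the accessory chain of the IL-18 receptor, lost nearly all of its active marks, H3K4me3 from 132 and 106 CPM to 13.8 and 14.2 (-3.09 ± 0.21) and H3K27ac from 425 and 278 to 52.3 and 60.5 (-2.64 ± 0.19). Il18r1, the ligand-binding chain, had a small H3K4me3 rise (0.64 ± 0.30, adjusted p = 0.0461) and no call in H3K27ac (-0.38 ± 0.22). Il15ra, which presents IL-15, lost H3K27ac (253 and 273 CPM to 158 and 125, -0.90 ± 0.17) but not H3K4me3 (-0.01 ± 0.09). Tnfrsf11b, coding for osteoprotegerin, lost H3K4me3 (101 and 121 CPM to 53.2 and 54.0, -1.05 ± 0.17) and H3K27ac (126 and 127 to 59.9 and 57.5, -1.11 ± 0.21).

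The receptor genes of lowest p also included Eda2r, an ectodysplasin receptor gene, which lost H3K4me3 (-2.02 ± 0.15) and H3K27ac (-2.03 ± 0.20) and also H3K27me3 (-1.16 ± 0.38). Il20rb, an interleukin-20 receptor chain, and Ackr3, a scavenging receptor for CXCL12, gained H3K4me3 (3.81 ± 0.16 and 2.08 ± 0.11). Of 18 tumour necrosis factor ligand genes only Tnfsf11 and Eda were measured. Both lost H2AK119ub1 (-0.73 ± 0.20 and -1.37 ± 0.22). Eda, coding for ectodysplasin and marked UP, also lost H3K27me3 (-1.98 ± 0.29) and gained H3K4me3 (0.94 ± 0.15). Eda and Eda2r lie on the X chromosome. Counts outside the autosomes made up 3.55% to 3.83% of the windows' H3K27me3 in WT and 1.52% to 1.56% in cKO, and 3.22% to 3.26% and 1.47% to 1.48% of H2AK119ub1. In H3K4me3 they were 1.82% to 1.87% and 1.33% to 1.35%, and in H3K27ac 1.95% to 1.96% and 1.36% to 1.37%. The part of this difference in the values of Eda and Eda2r was not tested, and all 7 members lie on autosomes.

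Of 33 prostaglandin genes 4 were measured, 3 marked DOWN and 1 of them Ptgs2. The H3K4me3 test called 2 higher and 2 lower, with H3K27ac higher at 1 and lower at 2, H2AK119ub1 higher at 3, and H3K27me3 passed at none (median 0.71). Pla2g4a, whose phospholipase releases the arachidonic acid that COX-2 uses, starts 138.7 kb from Ptgs2 and is its nearest measured gene. Pla2g4a lost H3K4me3 from 171 and 158 CPM to 96.9 and 90.0 (-0.82 ± 0.14) and H3K27ac from 158 and 152 to 83.6 and 81.6 (-0.91 ± 0.19), sizes near those of Ptgs2. Ptgr1 and Ptgr2, which inactivate prostaglandins, gained H3K4me3 (0.69 ± 0.13 and 0.78 ± 0.11) and H2AK119ub1 (0.69 ± 0.22 and 1.06 ± 0.27) together. The H2AK119ub1 libraries of Ptgr1 overlapped, with 106 and 64.0 CPM in WT and 176 and 99.5 in cKO.

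Of 32 class I antigen presentation genes 10 were measured, 8 marked DOWN and 1 of them B2m. H3K4me3 was lower at 6 and higher at 2, and H3K27ac lower at 5 and higher at 1, with medians of -0.30 and -0.56. These losses are near the shares among promoters marked DOWN, 58.2% and 53.1%. H2AK119ub1 was lower at 1, and H3K27me3 higher at 2 and lower at 1. Tap1, the peptide transporter, and Psmb9, an immunoproteasome subunit, lie at 1 shared promoter whose reads cannot be told apart. H3K4me3 at Tap1 was 348 and 365 CPM in WT and 294 and 290 in cKO (-0.29 ± 0.09), and H3K27ac changed by -0.66 ± 0.18. The class I genes H2-M3 (H3K27ac -1.75 ± 0.22) and Fcgrt, coding for the neonatal Fc receptor (H3K4me3 -1.06 ± 0.22, H3K27me3 1.13 ± 0.38), also lost an active mark. H2-Q4 and H2-K1 gained H3K4me3 (2.50 ± 0.23 and 0.76 ± 0.19), but class I heavy chain genes have near-identical copies, so these values are uncertain.

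Of 86 NF-kB, interferon and inflammasome regulator genes 27 were measured, 15 marked DOWN. H3K4me3 was higher at 12 and lower at 12, H3K27ac higher at 11 and lower at 8, with medians of -0.15 and -0.12. H2AK119ub1 was higher at 7 and lower at 3, and H3K27me3 higher at 6 and lower at 2. The gains in H2AK119ub1 included Stat3 (1.14 ± 0.23) and Map3k14 (1.02 ± 0.21), and those in H3K27me3 included Map3k14 (0.94 ± 0.35). The 4 genes of lowest p, all marked UP, gained both active marks. They were Bcl3, a nuclear IkB protein gene (H3K4me3 36.6 and 32.2 CPM to 224 and 231, 2.73 ± 0.15), Map3k14, the NF-kB-inducing kinase gene (1.13 ± 0.08), Nfkbia, the IkB-alpha gene (1.15 ± 0.09), and Stat3 (1.13 ± 0.08).

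Stromal and other cell type markers were read in the same fits. Of 23 stromal markers 12 were measured, all marked DOWN, and Cxcl12 is also on the chemokine list. H3K4me3 was lower at 10 and higher at 1 (Mcam), with a median of -1.17, and H3K27ac lower at 9, with a median of -1.05. Among all promoters marked DOWN, 58.2% and 53.1% were lower in these marks. Their summed H3K4me3 was 3410 to 3720 CPM in WT and 1690 to 1760 in cKO, and their summed H3K27ac 2820 to 3270 and 1210 to 1260. Col1a2, Pdgfrb and Vcam1 each had over 100 CPM of H3K4me3 in WT, as did Cd44, Col1a1, Col3a1, Cxcl12, Eng and Twist2. Mcam, Ly6a and Thy1 had less, at percentiles 28.9, 16.5 and 11.5 of all promoters in WT. Most of the stromal markers measured, but not all, were therefore above that level in WT. The members' loss of active marks thus moved with a loss at stromal markers, whose part in the result was not tested. Of 26 blood cell markers 3 were measured (Cd68, Lyz2, Lcp1), with summed H3K4me3 of 85.9 to 101 CPM in WT and 63.4 to 64.4 in cKO and summed H3K27ac of 179 to 189 and 183 to 194. Of 14 endothelial markers only Egfl7 was measured, with 20.1 and 20.4 CPM of H3K4me3 in WT and 6.65 and 7.61 in cKO and an H3K27ac change of -0.13. None of the blood or endothelial markers measured was higher in an active mark. Cd68 held most of the blood markers' H3K27ac, 112 and 138 CPM in WT and 159 and 116 in cKO. Defining markers such as Ptprc and Pecam1 were not analysed here.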

How the data were processed

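Chromatin from mesenchymal stromal cells was immunoprecipitated for 4 marks in 2 genotypes, with 2 libraries per group. The authors deposited raw read counts in 200 bins of 50 bp per gene, not normalised, per the file headers. Per the submitters' processing notes, the genome build was GRCm38 and the tools included Bowtie2 2.4.5, bedtools 2.30.0, cutadapt 1.18, SAMtools 1.9 and Picard 2.25.5. Deposited rows carry gene identifiers, and symbols were assigned where 1 RefSeq gene start lay within 500 bp (76.4% of rows). Runs of bins show that most reads were counted in 3 bins, so counts overstate precision.

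Counts over 4 kb promoters, the core, shoulders, flanks and 10 kb windows were tested per mark with edgeR 4.0.16 (R 4.3.3) quasi-likelihood fits, cKO against WT, after a minimum count of 10. TMM factors came from autosomal 10 kb windows, and Benjamini-Hochberg adjustment ran over all features of the fit, with a threshold of 0.05. The code was tested on simulated data. Window totals were 1283020 to 10101047 counts per library. With 1 library of a group left out, the remaining one is assumed to vary like the other group.

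The members and gene lists were chosen with earlier results of these data known. Besides the members, the text names the 4 genes of lowest p in each list, the receptors and partners of the members, the markers, and the 2 genes most like each member by Pearson r. Alternatives were other scalings, DESeq2 1.42.0, no filter, other promoter widths, 1 fit of all 16 libraries, a regional offset, a replicate block and each library left out. The shoulders and the core share were added after seeing the data.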

Additional observations from a re-analysis of the deposited data

How the results depend on the processing

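Of 420 alternative values of the members' promoter changes, 387 kept their call or lack of one, 28 lost the call, 4 gained one and 1 reversed. Direction was compared only for changes called in the main fit. The reversal was Il15 in H3K4me3, at 0.03 within 1 kb of the start against -0.28, and the cause was not tested. H2AK119ub1 rested most on single libraries: 651 promoters were higher and 636 lower, and leaving out 1 library gave 4 to 564 higher and 19 to 571 lower, the least without cKO replicate 1. Without cKO replicate 1 no member kept its H2AK119ub1 call, and without cKO replicate 2 only Ccl7 did. H3K27me3 gave 268 to 447 higher and 358 to 625 lower with a library left out, the least without cKO replicate 1. H3K27ac gave 753 to 1051 lower, the least without WT replicate 1. Within 1 kb, 267 promoters were higher and 340 lower in H2AK119ub1 and 245 higher in H3K27me3. Over 5 kb to each side 984 were lower in H2AK119ub1. With all 16 libraries in 1 fit 961 were lower in H3K27me3, and relative to the 20 nearest genes in the other Polycomb mark 261 were higher and 208 lower in H2AK119ub1. Causes of these moves were not tested. Library sizes from the outer 1 kb moved the median H3K4me3 change by 0.15, and the fit of all 16 libraries moved that of H3K27me3 by -0.11.

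Promoter deviations of same-numbered WT and cKO libraries correlated at 0.005, -0.028, 0.115 and 0.065 in H2AK119ub1, H3K27me3, H3K4me3 and H3K27ac. With 2 libraries per group these values cannot show whether a replicate number marks a shared animal or day. A replicate block changed no promoter call of a member and moved no count past 1.5 times: H3K4me3 had 1592 promoters higher and 1256 lower, H3K27ac 1224 and 1158, H2AK119ub1 642 and 623, H3K27me3 453 and 568. Depth limits the Polycomb marks most, with as few as 30 counts at a member's promoter.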
